A study of Mus musculus with 2 samples.

Results

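Heat shock proteins and endoplasmic reticulum (ER) chaperones were followed in RPE-choroid, tissue that joins the retinal pigment epithelium (RPE), which nourishes the photoreceptors, to the choroid, its blood supply. The 41 genes were taken by name from a list of HSP90 and its cochaperones, HSP70, HSP40, small heat shock proteins, and the sensors, factors and chaperones of the unfolded protein response. All 41 were found among the 23420 gene rows of the count table, and all 41 passed the filter on low counts, with between 149 and 27061 counts per library. Polyadenylated RNA was sequenced from 3 mice labelled AhR -/- (strain B6.129-AhRtm1Bra/J, a targeted allele of Ahr, the gene for the aryl hydrocarbon receptor) and 3 mice labelled AhR +/+ (C57BL6/J). All were 11 to 13 months old, no treatment is named for them, and tissue of 2 eyes was pooled per library. Whether the wild-type mice were littermates is not given in the sources used here. Each group has 1 entry in the archive and a count column per animal.

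The aryl hydrocarbon receptor (AhR) waits in the cytosol bound to a dimer of HSP90 and the cochaperone p23, and a ligand frees it to enter the nucleus and pair with ARNT. HSP90 and HSP70 also hold HSF1, the factor that switches on heat shock genes, in an inactive state until misfolded proteins draw them away. In the ER, HSPA5 holds 3 sensors, IRE1, PERK and ATF6, in a similar way, and their release drives the unfolded protein response through XBP1, ATF4 and ATF6. The RPE digests the tips that photoreceptors shed and secretes growth factors and matrix proteins, which pass through the ER.

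The upstream sequences below are shown because the heat shock and ER arms of the list are classically told apart by the elements in them. They are the 250 bases before the annotated start in RefSeq (GRCm38.p6), and capitals mark GAANNTTC or TTCNNGAA, paired units of the heat shock element, in the first 3 genes and the ER stress response element, CCAAT and CCACG with 9 bases between them, in Hspa5. Hspa1a (chr17:34972157-34972406, minus strand) and Hspa1b (chr17:34959239-34959488, minus strand) are the inducible HSP70 pair, Hspb1 (chr5:135887669-135887918, plus strand) encodes a small heat shock protein and Hspa5 (chr2:34771840-34772089, plus strand) encodes the ER HSP70.
Hspa1a: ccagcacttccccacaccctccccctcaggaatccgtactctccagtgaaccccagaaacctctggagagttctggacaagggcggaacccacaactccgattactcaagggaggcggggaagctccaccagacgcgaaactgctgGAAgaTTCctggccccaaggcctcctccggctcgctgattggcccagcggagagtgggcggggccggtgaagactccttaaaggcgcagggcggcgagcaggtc
Hspa1b: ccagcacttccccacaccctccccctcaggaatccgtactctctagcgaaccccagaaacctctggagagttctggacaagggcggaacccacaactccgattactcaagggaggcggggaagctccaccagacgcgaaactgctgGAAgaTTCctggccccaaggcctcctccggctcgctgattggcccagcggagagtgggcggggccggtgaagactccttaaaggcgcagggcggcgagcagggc
Hspb1: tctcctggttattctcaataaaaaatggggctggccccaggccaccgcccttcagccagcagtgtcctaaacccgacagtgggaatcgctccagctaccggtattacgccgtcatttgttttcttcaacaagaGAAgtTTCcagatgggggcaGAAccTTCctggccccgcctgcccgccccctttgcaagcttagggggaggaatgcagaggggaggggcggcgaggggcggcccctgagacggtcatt
Hspa5: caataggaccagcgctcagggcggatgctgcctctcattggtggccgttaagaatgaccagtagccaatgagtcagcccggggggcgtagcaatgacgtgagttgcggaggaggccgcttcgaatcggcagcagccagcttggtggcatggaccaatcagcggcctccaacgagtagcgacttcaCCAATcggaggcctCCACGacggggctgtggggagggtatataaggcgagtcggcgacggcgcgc

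Hspa1a and Hspa1b differed at 3 of these 250 bases, and both hold 1 GAANNTTC from 104 to 97 bases before the start. Hspb1 holds it at 117 to 110 and at 97 to 90 bases before the start. In Hspa5 the ER element lies 65 to 47 bases before the start. The table held 39 starts for 33 of the 41 genes, and both strands were searched over the same 250 bases. GAANNTTC was in 8 of the 39 member promoters (20.5%), against 6.69% of all 32851 promoters. TTCNNGAA was in 4 of 39 (10.3%), against 7.17%. In 2 promoters (5.13%, against 0.466% of all) the pairs overlap as 3 or more alternating units, and these are of Hspd1 and Hspe1, which share the stretch between them. There 2 copies of TTCNNGAA lie on either side of 1 GAANNTTC and overlap it, which makes 4 alternating units. The full ER element was in 6 of 39 (15.4%), those of Calr, Canx, Dnajc3, Hsp90b1, Hspa5 and Pdia6, against 0.113%. GCGTG, the core of the AhR response element, was in 23 of 39 (59.0%), against 28.2%, and it can overlap the CCACG end of the ER element. Base composition was not matched between these sets, and a match is a description of letters only.

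The libraries held 18058725 to 28692624 counts in genes, and levels are given as CPM, the usual depth-scaled count, with library sizes adjusted by the trimmed mean of M-values (TMM). Ahr itself stood at 41.4, 45.4 and 40.6 CPM in AhR -/- animals 1, 2 and 3, against 19.7, 20.2 and 26.0 CPM in AhR +/+ animals 1, 2 and 3 (log2 fold change 0.95, SE 0.16, edgeR adjusted p = 0.0991). These counts cover all of Ahr and say nothing of a deleted stretch, so the genotypes are taken from the labels alone, and every direction below rests on them. The defining RPE markers were present in every library, with a summed level over 10 of 10 markers of 23810 to 39590 CPM in AhR -/- and 31370 to 41570 CPM in AhR +/+ libraries. All 10 of 10 markers of cornea and conjunctiva, epithelia at the front of the eye, were detected. They summed to 3778, 15710 and 12170 CPM in AhR -/- animals 1 to 3, against 6369, 2638 and 3100 CPM in AhR +/+ animals 1 to 3. Summed markers of several other lists separated the genotypes. Erythroid markers (2 of 5 tested) summed to 55.7 to 1062 CPM in AhR -/- and 4.29 to 33.65 CPM in AhR +/+ libraries. Endothelial markers (10 of 10 tested) summed to 675 to 1012 CPM in AhR -/- and 1049 to 1109 CPM in AhR +/+ libraries, and smooth muscle and pericyte markers (8 of 8) to 737 to 982 CPM in AhR -/- and 1024 to 1145 CPM in AhR +/+ libraries. Fibroblast markers (6 of 6) summed to 7918 to 8516 CPM in AhR -/- and 9141 to 11110 CPM in AhR +/+ libraries. Neutrophil markers (3 of 6 tested, with Ngp, Mpo and Elane at 0 throughout) summed to 10.2 to 28.7 CPM in AhR -/- and 2.76 to 5.15 CPM in AhR +/+ libraries. Of the tested neutrophil markers only S100a8 and S100a9 separated the groups. Camp overlapped, at 3.4, 0.11 and 1.7 CPM in AhR -/- animals 1 to 3, against 2.1, 2.4 and 1.5 CPM in AhR +/+ animals 1 to 3. The part of these lists in the values below was not tested. In bulk tissue, fewer cells of a type and less RNA per cell cannot be told apart. Nothing in the labels gives batches, and the labels name the 3 mice of a group as separate animals.

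No chaperone gene among the 41 passed the test for a difference between the genotypes. The edgeR quasi-likelihood test, adjusted by Benjamini-Hochberg over 15796 genes, called 0 members, and 0.0506% of all genes (8) were called. The smallest adjusted p of a member was 0.277. At an unadjusted p under 0.05 there were 5 members (12.2%), 4 higher and 1 lower, against 14.2% of all genes (7.55% higher and 6.62% lower). The groups did not overlap for 8 members (19.5%), 4 higher and 4 lower, against 20.0% of all genes (10% higher and 9.96% lower). DESeq2 called 0 members with 2 at an unadjusted p under 0.05, and 3.06% of all genes were called by it. The edgeR exact test gave the same counts of members, 0 and 2, with 2.26% of all genes called. With limma-voom they were 0 and 4, with 0.0823% of all genes called. At an unadjusted p under 0.05, DESeq2 had 2347, the exact test 2165 and limma-voom 2281 of the 15796 genes. These shares of members lie near or below the shares of all genes.

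The median log2 fold change of the 41 members was 0.04, with 23 above 0 and 18 below 0, and that of all genes was 0.01, with 51.2% above 0. The sign of the members' median turned without AhR -/- animal 1 (-0.051) and without AhR +/+ animal 3 (-0.023), and with a correction for transcript GC content fitted together with the animal number as a block (-0.0055). Fold changes ran from -0.49 for Ern1 to 1.01 for Hspa1b, and 40 of 41 were smaller than 1.5-fold in either direction, against 83.2% of all genes. The 95% interval itself lay within 1.5-fold for 25 members (61.0%), against 33.8% of all genes. The median SE of a log2 fold change was 0.15 over the members and 0.21 over all genes. These comparisons were not matched for expression level, and every member had at least 149 counts in each library.

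**Figure D1:**
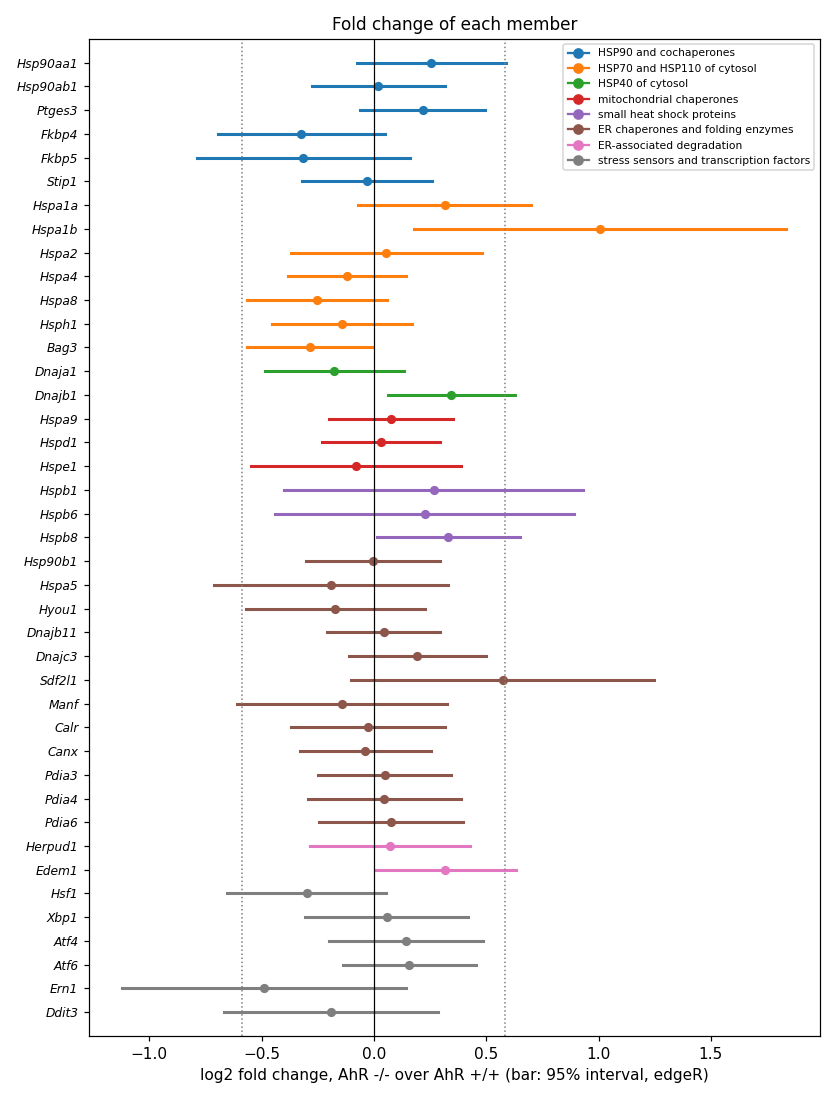
Log2 fold change of each of the 41 members, AhR -/- over AhR +/+, with its 95% interval from the edgeR fit (3 libraries a group, colour by role, dotted lines at 1.5-fold). All points except Hspa1b (1.01) lie between the dotted lines, and 0 members passed at an adjusted p under 0.05.

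Cytosolic HSP90 binds AhR directly, and neither of its genes passed the test. Hsp90ab1, the constitutive form, stood at 892, 985 and 995 CPM in AhR -/- animals 1 to 3, against 969, 931 and 935 CPM in AhR +/+ animals 1 to 3. The groups overlapped, and at 0.019 (SE 0.13, edgeR adjusted p = 0.964) the log2 fold change had a 95% interval from -0.28 to 0.32. Hsp90aa1, the stress-inducible form, stood at 283, 281 and 270 CPM in AhR -/- animals 1 to 3, against 199, 229 and 271 CPM in AhR +/+ animals 1 to 3. AhR +/+ animal 3 reached the AhR -/- range, and the log2 fold change was 0.26 (SE 0.15, edgeR adjusted p = 0.465), and 0.15 with the GC correction or without AhR +/+ animal 1.

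Of the HSP90 cochaperones, Ptges3 encodes p23, which closes the HSP90 dimer on AhR. It stood at 49.1, 51.9 and 48.6 CPM in AhR -/- animals 1 to 3, against 40.3, 46.6 and 41.8 CPM in AhR +/+ animals 1 to 3. Its groups did not overlap, but the difference did not pass (log2 fold change 0.22, SE 0.12, edgeR adjusted p = 0.468), and was 0.099 with the GC correction. Fkbp4, an immunophilin that moves steroid receptors towards the nucleus, stood at 152, 99.4 and 125 CPM in AhR -/- animals 1 to 3, against 150, 172 and 148 CPM in AhR +/+ animals 1 to 3. AhR -/- animals 2 and 3 were the lowest and animal 1 lay within the AhR +/+ range (log2 fold change -0.32, SE 0.17, edgeR adjusted p = 0.415). The Fkbp4 value was -0.48 without AhR -/- animal 1, -0.18 without AhR -/- animal 2, -0.19 with the GC correction and -0.043 with a covariate for the cornea markers. Fkbp5, a glucocorticoid-inducible relative, averaged 21.9 ± 2.86 CPM in AhR -/- and 27.2 ± 7.10 CPM in AhR +/+ libraries (SD, n = 3 each). Stip1, which links HSP70 to HSP90, averaged 90.3 ± 10.5 CPM in AhR -/- and 92.3 ± 7.01 CPM in AhR +/+ libraries (SD, n = 3 each). Over the 6 genes of this role 3 lay above 0 and 3 below, and 0 were called.

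The inducible HSP70 gene Hspa1b had the largest fold change of the 41 members, with AhR -/- libraries that stood far apart. It lies at 34956436 to 34959238 of chromosome 17 (GRCm38). It stood at 43.4, 126 and 111 CPM in AhR -/- animals 1 to 3, against 64.7, 35.4 and 39.1 CPM in AhR +/+ animals 1 to 3. AhR -/- animals 2 and 3 were above every other library, and animal 1 was below AhR +/+ animal 1. At 1.01 (SE 0.37, edgeR adjusted p = 0.278), its log2 fold change had a 95% interval from 0.18 to 1.84. Without AhR -/- animal 1 it was 1.35 and passed (edgeR adjusted p = 0.0249, the lowest over its 17 alternatives, which reached 0.909), in a fit that called 4.95% of all genes. In the authors' deposited table, turned to AhR -/- over AhR +/+, Hspa1b is at 0.97 with an FDR of 0.0233, the 1 member under 0.05 there, where 2.37% of all genes are.

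The order of Hspa1b over the 6 libraries was that of the summed cornea and conjunctiva markers, highest in AhR -/- animals 2 and 3, then AhR +/+ animal 1, AhR -/- animal 1, and AhR +/+ animals 3 and 2. With the mean log2 CPM of those markers as a covariate the log2 fold change of Hspa1b was -0.13 (edgeR adjusted p = 0.909). The markers were themselves highest in 2 of the 3 AhR -/- animals, so this fit cannot tell them apart from genotype. Their part in the Hspa1b values was not tested. Hspa1a, the neighbouring copy, stood at 43.1, 60.2 and 50.9 CPM in AhR -/- animals 1 to 3, against 48.9, 38.0 and 37.0 CPM in AhR +/+ animals 1 to 3. Its log2 fold change was 0.31 (SE 0.17, edgeR adjusted p = 0.441), and 0.18 without AhR -/- animal 2, 0.59 with the GC correction and -0.021 with the covariate. Of the 50-base stretches of the Hspa1b transcript, 62.3% occur in Hspa1a too. Alignments that were not unique were tallied apart from the gene counts, so reads from such stretches may be missing from both genes. How the authors' counting divided other reads between Hspa1a and Hspa1b is uncertain. The sum of both does not depend on that division, though it misses any read set aside as matching both. It was 86.5, 186 and 162 CPM in AhR -/- animals 1 to 3, against 114, 73.5 and 76.1 CPM in AhR +/+ animals 1 to 3. The groups overlapped in the sum as they did for Hspa1b. The deposited tally of alignments that were not unique came to 41.9, 39.7 and 37.7 per 100 gene counts in AhR -/- animals 1 to 3, against 28.8, 30.4 and 29.9 per 100 in AhR +/+ animals 1 to 3, and its part in the values of genes with near-identical copies was not tested.

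**Figure D2:**
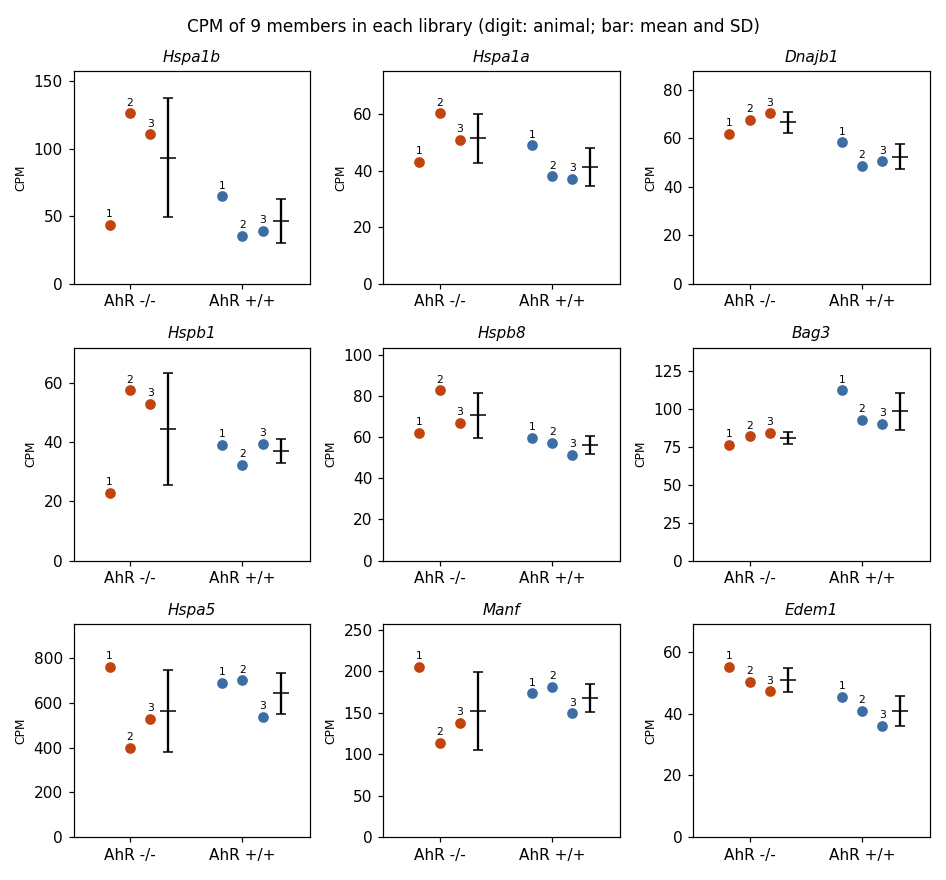
CPM of 9 members in each library, with the AhR -/- libraries left of the AhR +/+ libraries, digits for the animal and bars for mean and SD (n = 3 each). Hspa1b and Hspb1 are high in AhR -/- animals 2 and 3 and low in animal 1 (43.4 and 23.0 CPM), while Hspa5 and Manf are highest in AhR -/- animal 1 (759 and 205 CPM).

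Hspa4, Hspa8 and Bag3 had every AhR -/- library below every AhR +/+ library, and none passed the test. Hspa4, an HSP110-type nucleotide exchange factor for HSP70 (53259814 to 53300457 of chromosome 11), stood at 171, 183 and 174 CPM in AhR -/- animals 1 to 3, against 184, 196 and 195 CPM in AhR +/+ animals 1 to 3. The groups came within 1 CPM of each other without overlapping, and the log2 fold change was -0.12 (SE 0.12, edgeR adjusted p = 0.692), or -0.18 with the GC correction. Hspa8, the constitutive HSP70 HSC70, stood at 177, 139 and 165 CPM in AhR -/- animals 1 to 3, against 186, 209 and 178 CPM in AhR +/+ animals 1 to 3. It did not overlap either (log2 fold change -0.25, SE 0.14, edgeR adjusted p = 0.444), with -0.16 without AhR -/- animal 2 and -0.092 with the cornea covariate. Of the 50-base stretches of its transcript 52.7% occur in other annotated genes, most of them in Gm15459. Bag3, which couples HSP70 and HSPB8 to selective autophagy (128523616 to 128546981 of chromosome 7), stood at 76.1, 81.9 and 84.0 CPM in AhR -/- animals 1 to 3, against 112, 92.7 and 89.9 CPM in AhR +/+ animals 1 to 3. It was the 1 member lower at an unadjusted p under 0.05 (log2 fold change -0.28, SE 0.13, edgeR adjusted p = 0.349). Bag3 was at -0.11 with the GC correction and -0.18 without AhR +/+ animal 1, where its unadjusted p was not under 0.05, and at -0.45 with the cornea covariate. Its unadjusted p was also not under 0.05 with DESeq2, limma-voom, the edgeR exact test or the animal number as a block. The same held without AhR +/+ animal 2 and without any 1 of the AhR -/- animals. Hsph1, another HSP110, averaged 80.3 ± 11.2 CPM in AhR -/- and 88.6 ± 9.03 CPM in AhR +/+ libraries, and Hspa2, known for its role in sperm, 16.1 ± 2.46 CPM in AhR -/- and 15.5 ± 0.92 CPM in AhR +/+ libraries (SD, n = 3 each).

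The HSP40 proteins hand substrates to HSP70. Dnajb1, a heat-inducible HSP40 (83608193 to 83612653 of chromosome 8), stood at 62.0, 67.8 and 70.4 CPM in AhR -/- animals 1 to 3, against 58.4, 48.7 and 50.5 CPM in AhR +/+ animals 1 to 3. The 3 AhR -/- libraries were above all 3 AhR +/+ libraries, and the difference did not pass (log2 fold change 0.34, SE 0.13, edgeR adjusted p = 0.277). It stayed above 0 in all 17 alternative fits, from 0.18 with the cornea marker covariate to 0.43. Dnaja1, an HSP40 with a farnesyl anchor, averaged 46.5 ± 4.44 CPM in AhR -/- and 52.6 ± 5.67 CPM in AhR +/+ libraries (SD, n = 3 each).

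The 3 small heat shock proteins, which hold unfolded proteins without using ATP, all had a log2 fold change above 0, and 0 were called. Hspb8 (116408491 to 116422864 of chromosome 5) stood at 62.2, 82.9 and 67.0 CPM in AhR -/- animals 1 to 3, against 59.8, 57.3 and 51.3 CPM in AhR +/+ animals 1 to 3. Its groups did not overlap (log2 fold change 0.33, SE 0.14, edgeR adjusted p = 0.339), and the value was 0.20 without AhR -/- animal 2 and 0.14 with the cornea covariate. Hspb1, also known as HSP25 in mouse, stood at 23.0, 57.6 and 53.0 CPM in AhR -/- animals 1 to 3, against 39.1, 32.3 and 39.5 CPM in AhR +/+ animals 1 to 3. AhR -/- animal 1 was the lowest of the 6 libraries and AhR -/- animals 2 and 3 the highest. Its log2 fold change was 0.27 (SE 0.30, edgeR adjusted p = 0.734), 0.58 without AhR -/- animal 1, 0.036 without AhR -/- animal 2 and 0.12 without AhR -/- animal 3. It was 0.64 with the GC correction and -0.57 with the cornea marker covariate. AhR -/- animals 2 and 3 were also the libraries with the highest cornea marker sums, and the part of those markers in the Hspb1 values was not tested.

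Hspb6, the small heat shock protein HSP20 of muscle, stood at 70.2, 85.0 and 47.7 CPM in AhR -/- animals 1 to 3, against 46.0, 41.1 and 86.2 CPM in AhR +/+ animals 1 to 3. The log2 fold change was 0.23 (SE 0.29, edgeR adjusted p = 0.780), and ran from 0.028 without AhR -/- animal 2 to 0.61 without AhR +/+ animal 3. The highest library of each group was the one with most skeletal muscle marker RNA. Those markers, 10 of 10 detected, summed to 1761, 3773 and 1411 CPM in AhR -/- animals 1 to 3, against 884, 1254 and 2725 CPM in AhR +/+ animals 1 to 3, and their part in the Hspb6 values was not tested. Exons of Proser3 and Lin37 overlap Hspb6 on the other strand, and how reads in the overlap were counted is not known. Exons of another annotated gene overlap 11 of the 40 members with 1 annotated position.

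Of the 3 mitochondrial chaperones 0 were called. Hspa9, the mitochondrial HSP70 mortalin, stood at 219, 218 and 203 CPM in AhR -/- animals 1 to 3, against 215, 189 and 203 CPM in AhR +/+ animals 1 to 3. The groups overlapped (log2 fold change 0.08, SE 0.12, edgeR adjusted p = 0.823, and 0.0066 to 0.12 in its leave-one-out and GC-corrected fits), with a 95% interval from -0.20 to 0.35. Hspd1 and Hspe1, which encode the HSP60 ring and its HSP10 lid from a shared divergent promoter, had log2 fold changes of 0.03 and -0.08. The 95% interval lay within 1.5-fold for all 3 mitochondrial members.

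The 12 ER chaperones and folding enzymes had a median log2 fold change of 0.02, 6 above 0 and 6 below, with 0 called and 0 at an unadjusted p under 0.05. Calr, the calcium-binding lectin chaperone calreticulin (84841850 to 84846934 of chromosome 8), stood at 813, 632 and 674 CPM in AhR -/- animals 1 to 3, against 794, 685 and 682 CPM in AhR +/+ animals 1 to 3. The groups overlapped (log2 fold change -0.03, SE 0.15, edgeR adjusted p = 0.954). Hsp90b1, the ER form of HSP90 known as GRP94, averaged 462 ± 28.7 CPM in AhR -/- and 462 ± 31.1 CPM in AhR +/+ libraries (SD, n = 3 each). Its log2 fold change of -0.0021 had a 95% interval from -0.30 to 0.30. Canx, the membrane-bound partner of calreticulin, averaged 395 ± 13.4 CPM in AhR -/- and 406 ± 30.5 CPM in AhR +/+ libraries (SD, n = 3 each). Pdia3, the disulphide isomerase that works with both, averaged 537 ± 13.4 CPM in AhR -/- and 520 ± 39.5 CPM in AhR +/+ libraries (SD, n = 3 each). The other disulphide isomerases Pdia4 and Pdia6 had log2 fold changes of 0.05 and 0.08.

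The ER chaperones varied between animals within both genotypes. AhR -/- animal 1 was the highest of its group for 11 of the 12 and AhR -/- animal 2 the lowest for 9, and AhR +/+ animal 1 was the highest of its group for 8 and AhR +/+ animal 3 the lowest for 10. The median coefficient of variation over the 12 was 12.4% in AhR -/- and 10.1% in AhR +/+ libraries. The median SE of a log2 fold change was 0.147 over the 12, 0.146 over all 41 members, which include them, and 0.211 over all genes. Within the 12 it ran from 0.11 for Dnajb11 to 0.30 for Sdf2l1. An SE does not measure whether genes share an order of animals. AhR -/- animal 1 was the highest of all 6 libraries for 9 of the 12 and for 17 of the 41. Its median log2 deviation was 0.20 over the 12 and 0.091 over the 41. Over all 41 members animal 1 of each group was the highest of its group for 25. Hspa5, the ER HSP70 known as BiP, stood at 759, 399 and 527 CPM in AhR -/- animals 1 to 3, against 688, 699 and 537 CPM in AhR +/+ animals 1 to 3, so animal 1 had 1.90 times the level of animal 2. Its log2 fold change was -0.19 (SE 0.23, edgeR adjusted p = 0.758) and -0.47 without AhR -/- animal 1, 0.0025 without AhR -/- animal 2 and 0.12 with the cornea marker covariate. Manf, a secreted ER stress-inducible factor, stood at 205, 114 and 138 CPM in AhR -/- animals 1 to 3, against 173, 182 and 149 CPM in AhR +/+ animals 1 to 3. Hyou1, the ER HSP110-type exchange factor, stood at 124, 79.9 and 91.8 CPM in AhR -/- animals 1 to 3, against 115, 123 and 95.5 CPM in AhR +/+ animals 1 to 3. Both genes had AhR -/- animal 1 as the highest library and animal 2 as the lowest, with log2 fold changes of -0.14 and -0.17. With the covariate they were 0.18 for Manf and 0.091 for Hyou1, and without AhR -/- animal 1 they were -0.42 and -0.37.

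Sdf2l1, an ER-resident partner of the chaperone DNAJB11 (17130138 to 17132383 of chromosome 16), stood at 49.2, 22.8 and 28.0 CPM in AhR -/- animals 1 to 3, against 22.6, 28.2 and 16.5 CPM in AhR +/+ animals 1 to 3. AhR -/- animal 1 stood above all other libraries, which overlapped. The log2 fold change was 0.57 (SE 0.30, edgeR adjusted p = 0.422), 0.18 without AhR -/- animal 1, 0.37 without AhR +/+ animal 3 and 1.05 with the cornea marker covariate. Dnajb11, an ER HSP40 that serves HSPA5, averaged 111 ± 7.40 CPM in AhR -/- and 107 ± 4.50 CPM in AhR +/+ libraries (SD, n = 3 each). Dnajc3, an ER cochaperone that restrains PERK, averaged 176 ± 13.3 CPM in AhR -/- and 154 ± 17.2 CPM in AhR +/+ libraries (SD, n = 3 each). AhR -/- animal 1 also had the most RPE marker RNA of its group (39590 CPM, against 23810 and 26040 CPM in animals 2 and 3) and the most erythroid marker RNA of all libraries (1062 CPM, against 55.7 and 77.1 CPM in AhR -/- animals 2 and 3 and 4.29 to 33.6 CPM in AhR +/+ libraries). Of the 5 erythroid markers 2 passed the filter, and Hba-a1 and Hba-a2 are at 0 in every library. The part of either in these values was not tested.

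**Figure D3:**
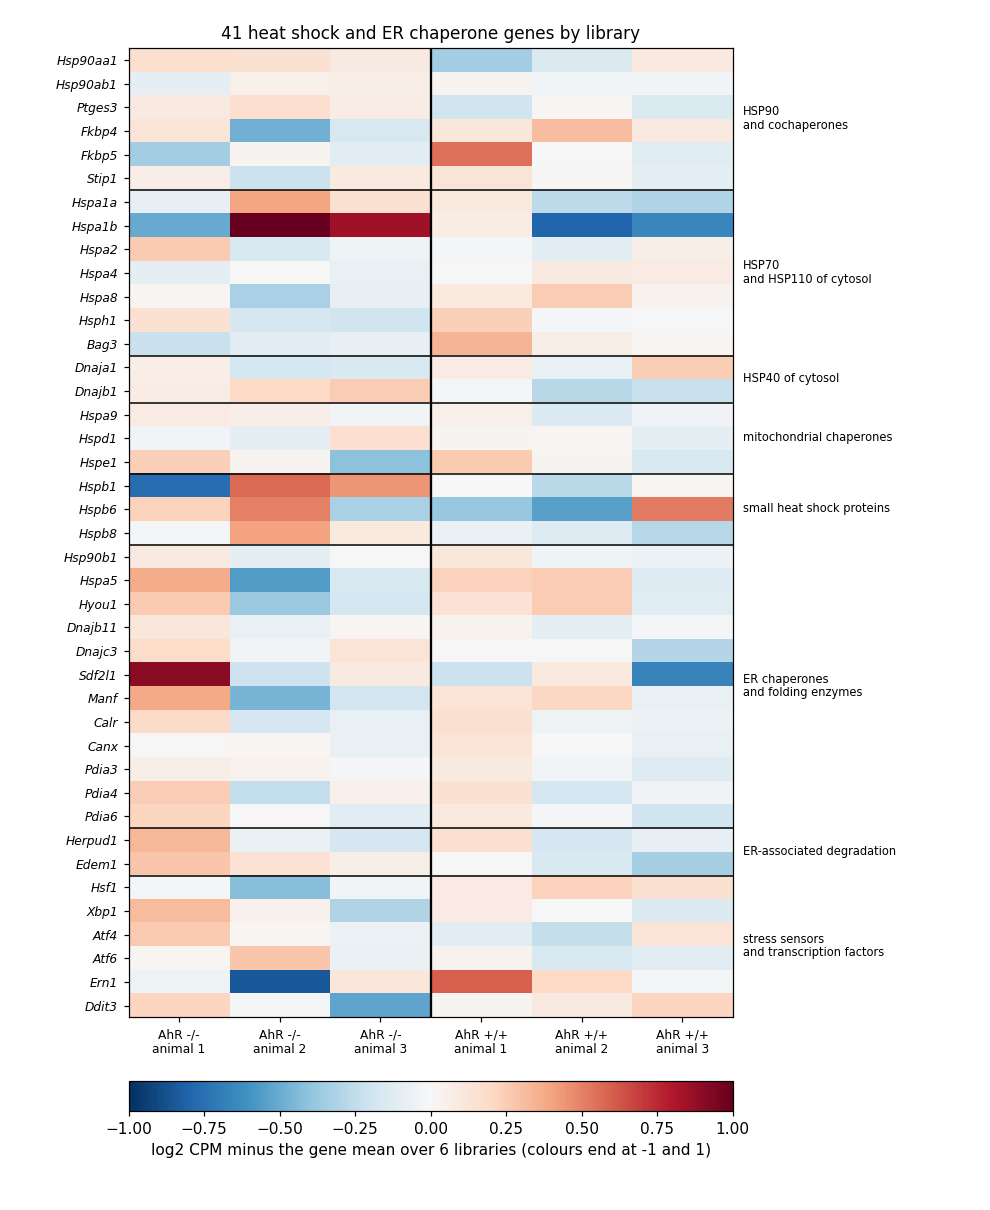
Log2 CPM of the 41 members minus the gene's mean over the 6 libraries, in rows grouped by role, with the 3 AhR -/- libraries left of the 3 AhR +/+ libraries. AhR -/- animal 1 is above the mean for most ER chaperones (median deviation 0.20 over the 12) and AhR -/- animal 2 below it (-0.13), AhR +/+ animal 1 is above it (0.12) and AhR +/+ animal 3 below (-0.097), and AhR -/- animals 2 and 3 carry the highest Hspa1b and Hspb1.

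Of the 2 genes for ER-associated degradation, which returns misfolded proteins to the cytosol, Edem1 encodes a lectin that picks out misfolded glycoproteins (108828641 to 108859356 of chromosome 6). It stood at 55.0, 50.2 and 47.2 CPM in AhR -/- animals 1 to 3, against 45.5, 40.9 and 36.0 CPM in AhR +/+ animals 1 to 3. The groups did not overlap, though AhR -/- animal 3 and AhR +/+ animal 1 were close (log2 fold change 0.32, SE 0.14, edgeR adjusted p = 0.349). It stayed above 0 in all 17 alternative fits, from 0.21 to 0.40. Herpud1, a scaffold of the degradation complex (94386438 to 94395377 of chromosome 8), stood at 140, 106 and 99.1 CPM in AhR -/- animals 1 to 3, against 124, 99.0 and 105 CPM in AhR +/+ animals 1 to 3. Its groups overlapped, with AhR -/- animal 1 above every other library (log2 fold change 0.07, SE 0.16, edgeR adjusted p = 0.880). Without that animal the value was -0.095.

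Sensors and transcription factors of the stress responses were likewise not called (0 of 6). Atf4, the effector of the PERK arm (80255184 to 80257541 of chromosome 15), stood at 320, 271 and 257 CPM in AhR -/- animals 1 to 3, against 249, 226 and 292 CPM in AhR +/+ animals 1 to 3. The groups overlapped (log2 fold change 0.14, SE 0.15, edgeR adjusted p = 0.725), and alternative fits gave 0.041 without AhR -/- animal 1 to 0.29 with the GC correction. Ern1, which encodes the sensor IRE1 (106394650 to 106487852 of chromosome 11), stood at 14.3, 8.18 and 16.0 CPM in AhR -/- animals 1 to 3, against 22.5, 17.0 and 14.7 CPM in AhR +/+ animals 1 to 3. It had the lowest fold change of the members (-0.49, SE 0.28, edgeR adjusted p = 0.467), and AhR -/- animal 2 was the lowest library. The value was -0.25 without AhR -/- animal 2 and -0.30 without AhR +/+ animal 1. Hsf1, the heat shock factor, stood at 33.3, 24.9 and 32.9 CPM in AhR -/- animals 1 to 3, against 35.5, 39.5 and 37.3 CPM in AhR +/+ animals 1 to 3. Its groups did not overlap (log2 fold change -0.30, SE 0.16, edgeR adjusted p = 0.424), with -0.18 without AhR -/- animal 2 and -0.13 with the cornea covariate. Xbp1, the factor spliced by IRE1, averaged 88.2 ± 18.6 CPM in AhR -/- and 84.8 ± 6.49 CPM in AhR +/+ libraries (SD, n = 3 each). Atf6, the sensor cleaved in the Golgi, averaged 69.2 ± 8.75 CPM in AhR -/- and 62.1 ± 4.32 CPM in AhR +/+ libraries (SD, n = 3 each). Ddit3, which encodes the pro-apoptotic factor CHOP, averaged 18.6 ± 4.68 CPM in AhR -/- and 21.2 ± 1.43 CPM in AhR +/+ libraries (SD, n = 3 each). Gene counts do not show XBP1 splicing, ATF6 cleavage or phosphorylation of the sensors.

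Per kilobase of annotated exon, the highest levels in both genotypes were of cytosolic and ER chaperones. On that scale Hsp90ab1 was first, at 319 CPM per kb in AhR -/- and 315 CPM per kb in AhR +/+ libraries, and Calr followed at 245 CPM per kb in AhR -/- and 250 CPM per kb in AhR +/+ libraries. Pdia3, Hspa5, Atf4 and Hsp90b1 came next in AhR -/- libraries, at 171, 133, 119.8 and 114.5 CPM per kb. In AhR +/+ libraries Pdia3, Hspa5, Hsp90b1 and Atf4 followed, at 165.5, 152, 114.6 and 108.5 CPM per kb. The lowest was Ern1 at 1.57 CPM per kb in AhR -/- and 2.21 CPM per kb in AhR +/+ libraries. Alignments that were not unique were tallied apart from the gene counts, so levels of genes with near-identical copies may be understated. For 7 members, Hsp90aa1, Hspa1a, Hspa1b, Hspa8, Hspb1, Hspd1 and Dnaja1, at least 25% of the transcript's 50-base stretches occur in another annotated gene. For 21 members none do.

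**Figure D4:**
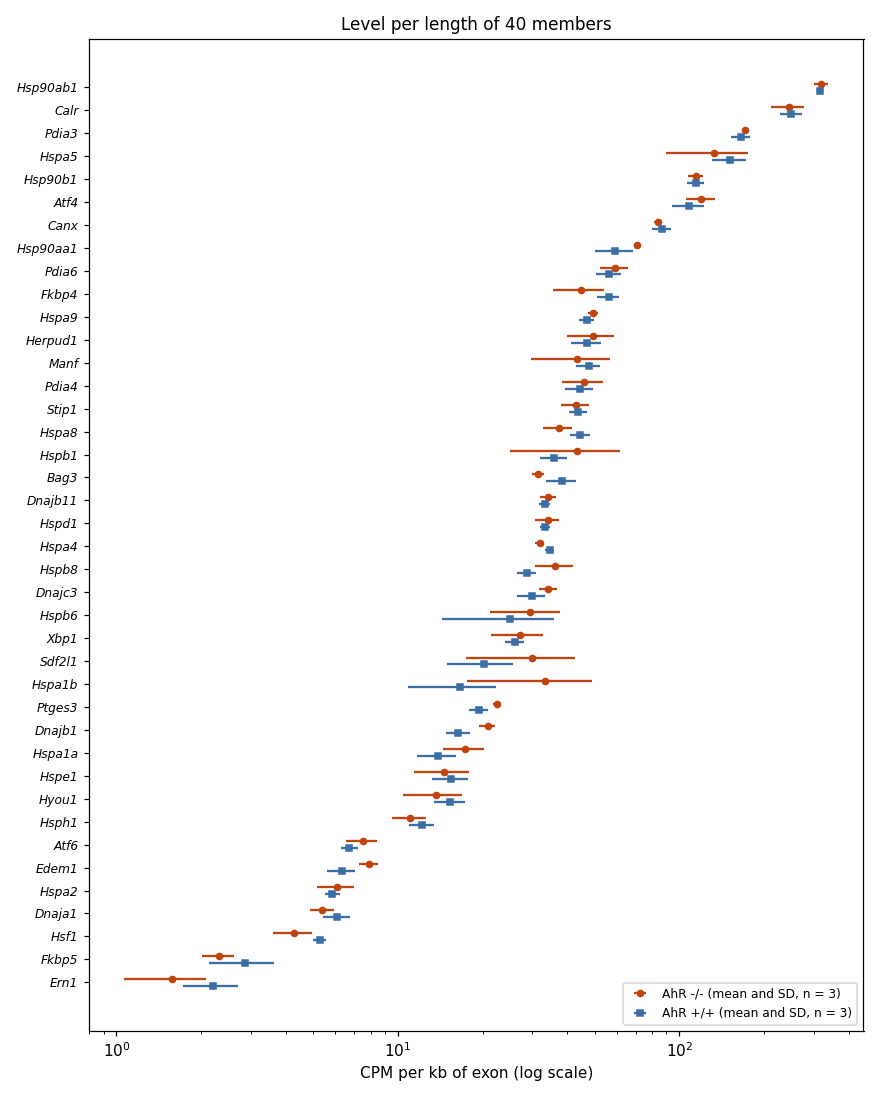
Mean level per kilobase of exon with SD (n = 3 libraries a group, log axis) for the 40 members with 1 annotated position, AhR -/- in red and AhR +/+ in blue, highest at the top. Hsp90ab1 (319 CPM per kb in AhR -/- and 315 in AhR +/+ libraries) leads and Ern1 (1.57 in AhR -/- and 2.21 in AhR +/+ libraries) is last.

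Genes around the members in the same pathways, 123 on 5 lists, were not called either (0 of 122 tested). The gene Ern2 had 0 counts in all libraries and was not tested. At an unadjusted p under 0.05 there were 19 (15.6%), 8 higher and 11 lower, against 14.2% of all genes (7.55% higher and 6.62% lower). Among the other 15 genes of the AhR and HSP90 complexes, a list that holds Ahr itself, 2 were higher and 4 lower at that level. Ahr was 1 of the 2 higher, and the median log2 fold change of the list was -0.19. Cdc37, a cochaperone that brings kinases to HSP90, stood at 122, 90.0 and 102 CPM in AhR -/- animals 1 to 3, against 141, 146 and 142 CPM in AhR +/+ animals 1 to 3. The 3 AhR -/- libraries were below all AhR +/+ libraries (log2 fold change -0.45, SE 0.14, edgeR adjusted p = 0.219). Arnt, the nuclear partner of AhR, averaged 60.3 ± 6.52 CPM in AhR -/- and 66.0 ± 3.33 CPM in AhR +/+ libraries (SD, n = 3 each).

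Of 39 other cytosolic chaperones and regulators 25 lay above 0 (64.1%, against 51.2% of all genes). At an unadjusted p under 0.05, 2 were higher and 0 lower, against 7.55% and 6.62% of all genes. The higher genes were Tcp1 and Cct4, which encode subunits of the TRiC chaperonin that folds actin and tubulin. Tcp1 averaged 135 ± 10.9 CPM in AhR -/- and 104 ± 8.83 CPM in AhR +/+ libraries (SD, n = 3 each). Cct4 averaged 125 ± 6.72 CPM in AhR -/- and 100.5 ± 4.54 CPM in AhR +/+ libraries (SD, n = 3 each). Of the other subunits, Cct2, Cct5, Cct6a and Cct8 had log2 fold changes of 0.12, 0.18, 0.20 and 0.24. Cct3 and Cct7 lay below 0, at -0.03 and -0.15. Of 36 other ER folding and degradation genes 1 was higher and 5 lower at that level, against 7.55% and 6.62% of all genes. The higher was Dnajb9, a soluble ER HSP40, at 108, 90.2 and 103 CPM in AhR -/- animals 1 to 3, against 76.7, 71.1 and 67.0 CPM in AhR +/+ animals 1 to 3. Its groups did not overlap (log2 fold change 0.49, SE 0.12, edgeR adjusted p = 0.172). Dnajb9 (44205559 to 44210326) lies on chromosome 12, as does Ahr (35497974 to 35535038). The groups differ in strain label, and the part of strain sequence near the targeted allele in the Dnajb9 values was not tested. Serpinh1, the collagen chaperone HSP47, stood at 203, 198 and 187 CPM in AhR -/- animals 1 to 3, against 269, 276 and 250 CPM in AhR +/+ animals 1 to 3 (log2 fold change -0.43, SE 0.12, edgeR adjusted p = 0.195). Its groups did not overlap either, nor did the summed fibroblast markers given above, and their part in it was not tested. Of 19 tested genes of stress signalling 1 was higher and 1 lower. These were Chac1, a glutathione-degrading target of ATF4 (log2 fold change 0.58), and the transcription factor gene Atf5 (-0.37). Of 13 mitochondrial chaperones and proteases 2 were higher and 1 lower, among them Clpx, the unfoldase of the ClpXP protease (0.36), and Htra2, a serine protease of the intermembrane space (-0.45).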

How the data were processed

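RNA-seq libraries of 6 mice were analysed. Bowtie, TopHat, HTSeq, edgeR and the build mm10 are named in the submitters' processing notes. The sources used here give no versions, annotation or strand setting. The authors deposited whole-number counts for 23420 gene rows and 5 tallies, which were left out; all 6 count columns matched an animal in the labels. The authors' deposited table of comparisons gives log2 fold changes (wild type over knockout, sign turned here), mean log2 CPM, p-values and FDR.

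Counts were tested on the whole table with edgeR 4.0.16 in R 4.3.3: filterByExpr (minimum count 10, minimum total 15), TMM, glmQLFit, glmQLFTest and a design of genotype alone, Benjamini-Hochberg adjustment over 15796 genes and a threshold of 0.05. SE is the absolute log2 fold change over the square root of F. The alternatives used DESeq2 1.42.0, limma 3.58.1 (voom), the edgeR exact test, other scalings and filters, libraries left out, the animal number as a block, a correction for transcript GC content and a cornea marker covariate. No 2 libraries agreed within counting noise. Exon lengths, overlaps, GC and shared stretches came from GENCODE M21 (GRCm38) and promoters from RefSeq. The annotation may differ from the authors'. Sequences of the printed promoters are credited to RefSeq GRCm38.p6.

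Members and gene lists were chosen with earlier results of these data known. The naming rule took called members, members whose groups did not overlap at an unadjusted p under 0.05, the member with the highest mean CPM of each role, and the 2 highest and 2 lowest log2 fold changes, 14 in all. Fits were tested on simulated data. Values given for members outside this rule were chosen after they were seen. From each wider list it took the 2 genes with the smallest p, with Arnt; a further gene named by the rule is not reported here.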

Additional observations from a re-analysis of the deposited data

How the results depend on the processing

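The count of members called was 0 in 17 of 18 alternatives and 1 without AhR -/- animal 1, where Hspa1b passed; leaving out 1 library at a time gave 0 to 1. The count at an unadjusted p under 0.05 was 5 (2238 of 15796 genes were at that level). It was 3 with no filter beyond 1 count (2371 of 18006 genes) and 2 with DESeq2 (2347 of 15796 genes). With the edgeR exact test it was 2 (2165 of 15796 genes), and with the cornea marker covariate 3 (1209 of 15796 genes). Leaving out 1 library at a time gave 0 to 10 members. There were 10 without AhR -/- animal 1 (where 23.0% of all genes were at that level). There were 2 without AhR -/- animal 2 (1516 of 16072 genes) and 0 without AhR -/- animal 3 (1719 of 16077 genes). Without AhR +/+ animal 2 there were 0 (1379 of 16124 genes), and without AhR +/+ animal 3 there were 3 (1738 of 16114 genes). The cause was not tested. The median log2 fold change ran from -0.051 (without AhR -/- animal 1) to 0.055 when a library was left out, and was 0.0045 with the GC correction and -0.0055 with that and the block. With the animal number as a block 0 members were at an unadjusted p under 0.05. With the GC correction and the block together there were 3 (Dnajb1, Hspb8 and Sdf2l1). Of all 15796 genes, 1595 were at that level with the block and 1369 with both. Animals with the same number deviated from their group means with correlations across genes of -0.096, -0.092 and -0.067. No animal correlated best with its own number. With 3 animals a group, such correlations cannot show whether animals of the same number shared a batch, and the labels give only the number in common. Signs turned for 21 of 41 members in at least 1 of 17 fits. Among the 14 named by rule, Hsp90ab1 (-0.012 to 0.066 when a library was left out) turned without AhR -/- animal 2 (-0.0037), AhR -/- animal 3 (-0.012) or AhR +/+ animal 3 (-0.011) and with the cornea covariate (-0.080). Calr (-0.14 to 0.046) turned without AhR -/- animal 2 (0.044), AhR -/- animal 3 (0.0022) or AhR +/+ animal 1 (0.046) and with the covariate (0.052). Herpud1 (-0.095 to 0.17) turned without AhR -/- animal 1 (-0.095), and Hspa1b with the covariate (-0.13).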
